A study of Homo sapiens with 24 samples.

Results

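LINC genes are long intergenic noncoding RNA genes that have been given only a number for a symbol, because no function or founding neighbour named them. They were taken here as every gene of the gene body (GB) count table that GENCODE 44 lists as a lncRNA with a symbol made of LINC and digits, which gave 2247 of 54377 genes. Like protein-coding genes (PCGs), intergenic lncRNA genes are transcribed by RNA Pol II from their own promoters, but their transcripts encode no protein and many are made at low levels and degraded quickly. During transcription the C-terminal domain (CTD) of RNA Pol II is phosphorylated on Tyr1 (Y1P), Ser2 (S2P) and Ser5 (S5P): S5P is the mark best known near gene starts, S2P the mark of elongation over gene bodies, and Y1P has been described near promoters and on antisense and enhancer transcription in mammalian cells.

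The libraries came from U2OS, an established human osteosarcoma cell line that the labels give as wild type, either not irradiated (no IR) or given ionizing radiation (IR) at 10 Gy, with 10 min as the time in the labels. In mNET-seq, an antibody to 1 phosphorylated form of the CTD pulls down RNA Pol II with the RNA it is making, and the ends of that RNA are sequenced. There were 6 groups, Y1P, S2P and S5P each without and with IR, and 2 replicates in each. Each replicate was sequenced in 2 batches, so 24 runs made 12 libraries. The labels do not say that the replicates were separate cultures, so the p-values reflect how far these libraries lay apart, which may be technical.

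The promoters of 7 LINC genes that carry the results below are given here from the RefSeq table of GRCh38.p14, each from 250 bases before to 50 bases after the annotated start, 5′ to 3′ on the gene's strand. LINC00662 had the highest level, LINC01126, LINC02875 and LINC01970 were short genes with more Y1P signal after IR, LINC02983 differed between antibodies, and LINC01411 and LINC01572 were long genes with less Y1P signal after IR. Capitals mark matches on either strand to GGGCGG (the core bound by SP factors), CCAAT (bound by NF-Y) or TGACTCA (bound by AP-1). TATAAA was searched too and is in none of these 7 windows. The windows lie at chr19:27793891-27794190 for LINC00662, chr2:43226961-43227260 for LINC01126, chr17:61411501-61411800 for LINC02875, chr17:82292765-82293064 for LINC01970, chr7:5428878-5429177 for LINC02983, chr5:174336104-174336403 for LINC01411 and chr16:72664921-72665220 for LINC01572. LINC01126, LINC02875 and LINC01411 are on the plus strand and the other 4 on the minus strand.
LINC00662: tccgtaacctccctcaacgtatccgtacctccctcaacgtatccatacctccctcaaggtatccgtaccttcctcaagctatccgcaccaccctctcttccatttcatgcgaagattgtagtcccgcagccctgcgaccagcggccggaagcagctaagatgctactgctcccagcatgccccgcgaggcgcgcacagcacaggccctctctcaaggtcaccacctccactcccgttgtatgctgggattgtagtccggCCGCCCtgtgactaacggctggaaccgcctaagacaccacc
LINC01126: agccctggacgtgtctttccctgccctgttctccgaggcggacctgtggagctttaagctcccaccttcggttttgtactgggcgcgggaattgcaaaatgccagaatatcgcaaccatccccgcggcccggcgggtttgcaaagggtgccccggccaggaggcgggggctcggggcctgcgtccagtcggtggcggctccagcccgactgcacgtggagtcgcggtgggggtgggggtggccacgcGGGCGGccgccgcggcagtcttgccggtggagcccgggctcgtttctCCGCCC
LINC02875: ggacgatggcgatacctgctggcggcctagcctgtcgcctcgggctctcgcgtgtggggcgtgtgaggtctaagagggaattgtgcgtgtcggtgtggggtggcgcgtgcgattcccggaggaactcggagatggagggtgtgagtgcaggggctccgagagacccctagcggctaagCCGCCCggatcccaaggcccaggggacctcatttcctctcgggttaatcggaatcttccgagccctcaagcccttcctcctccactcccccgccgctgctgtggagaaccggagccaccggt
LINC01970: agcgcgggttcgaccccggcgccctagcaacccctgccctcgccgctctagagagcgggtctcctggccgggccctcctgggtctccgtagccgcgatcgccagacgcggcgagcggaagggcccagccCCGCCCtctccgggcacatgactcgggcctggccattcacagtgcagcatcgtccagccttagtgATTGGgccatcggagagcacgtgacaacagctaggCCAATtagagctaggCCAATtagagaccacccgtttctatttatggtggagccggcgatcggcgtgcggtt
LINC02983: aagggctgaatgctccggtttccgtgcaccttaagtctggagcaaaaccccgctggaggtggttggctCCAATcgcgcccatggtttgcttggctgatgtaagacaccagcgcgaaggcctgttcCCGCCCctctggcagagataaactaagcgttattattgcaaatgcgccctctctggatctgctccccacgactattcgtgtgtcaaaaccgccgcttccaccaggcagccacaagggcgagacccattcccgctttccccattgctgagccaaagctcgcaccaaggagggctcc
LINC01411: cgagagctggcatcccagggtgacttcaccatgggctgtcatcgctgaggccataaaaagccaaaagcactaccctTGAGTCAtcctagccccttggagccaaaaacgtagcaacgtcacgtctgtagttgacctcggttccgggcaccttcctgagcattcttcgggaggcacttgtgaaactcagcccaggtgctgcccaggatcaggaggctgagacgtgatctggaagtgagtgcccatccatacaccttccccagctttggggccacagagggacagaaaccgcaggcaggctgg
LINC01572: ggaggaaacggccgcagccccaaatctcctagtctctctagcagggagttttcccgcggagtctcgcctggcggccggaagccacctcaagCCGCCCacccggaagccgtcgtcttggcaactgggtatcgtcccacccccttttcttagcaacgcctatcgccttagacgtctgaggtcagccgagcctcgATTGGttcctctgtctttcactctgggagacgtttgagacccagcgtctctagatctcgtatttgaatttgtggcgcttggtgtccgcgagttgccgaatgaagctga

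A match to these letters is a description of the window and not a binding site. RefSeq promoters were matched to 1487 LINC genes, of which 553 passed the filter on low counts, and the 2 annotations put the start of 269 of the 553 within 100 bp of each other. Over the 553, GGGCGG was in 132 windows (23.9%), against 45.0% of 35116 promoters of all genes, and median GC was 49.3% against 58.7%. CCAAT was in 37.6% of the LINC windows and 34.6% of all, TATAAA in 15.4% and 11.5%, and TGACTCA in 9.04% and 4.95%. Of the 37 LINC genes that rose with Y1P after IR (below), 30 were matched. GGGCGG was in 15 of those 30, with a median GC of 59.3%. Some of the 30 windows lay far from the GENCODE start of the gene, such as those of LINC01010 (94409 bp) and LINC00592 (46815 bp).

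Most LINC genes lay where their name says. Of the 2247, 150 (6.68%) overlapped a PCG, 53 of them on the same strand, 129 others began within 10 kb downstream of a PCG on the same strand, and 1968 (87.6%) did neither. The median distance to the nearest PCG was 52.3 kb, and 53 LINC genes began within 1 kb, to either side, of a PCG start on the other strand. The counting left out reads that fell on more than 1 gene body. The 53 same-strand overlaps had a median of 0.0833 counts a library against 3.33 over all LINC genes. Of these 53, 25 had no count and 17 passed the filter on low counts, and the part of the counting rule in this was not tested.

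The 12 libraries held 16220773 to 33144659 GB counts each, and LINC genes took 1.36% to 1.85% of them. That share was 1.78% to 1.85% in the 6 libraries of replicate 1 and 1.36% to 1.68% in those of replicate 2, lowest in the second Y1P no IR library, which also had the lowest TMM scaling factor (0.835, against up to 1.09 in the others). Of 8 genes of the mesenchymal and osteoblast lineage, 7 passed the filter, 4 of them at 1 CPM (counts scaled to library size) per kb or more. COL1A2, which did not pass, and TWIST1, which did, were near 0 (0.0079 and 0.00442 CPM per kb). None of 3 liver genes and 2 of 5 blood genes passed, whereas all 4 epithelial and 3 of 4 neuron genes did. Of these other lists, 1 epithelial gene and no liver, blood or neuron gene reached 1 CPM per kb. The sum of the neuron genes ran from 93.9 to 150.2 CPM in nonirradiated and from 95.8 to 125 CPM in irradiated libraries, and that of the epithelial genes from 27.3 to 31.5 and from 29.4 to 35.7 CPM. CDKN1A, the p53 target that stops the cell cycle, rose after IR in each antibody, with log2FC of 1.10 for Y1P, 0.82 for S2P and 0.93 for S5P (edgeR quasi-likelihood test, adjusted p = 0.000363, 0.00583 and 0.00269).

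LINC transcription in U2OS cells was concentrated in a few genes. LINC00662 alone held 15.9% of all LINC counts, the 10 highest genes 46.2%, the 50 highest 79.4% and the 100 highest 88.6%. At the other end, 160 LINC genes had no count in any library, 658 averaged under 1 count a library (the 160 included) and 867 averaged 1 to 10. A library detected 1479 to 1872 LINC genes, and 1079 had a count in all 12. The filter on low counts kept 864 LINC genes (38.5%) among 21246 genes in all, against 14661 of 19966 PCGs (73.4%). Every main test below is over those 21246. Alternatives with another filter, a single batch or fewer libraries kept other numbers of genes.

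Per kb of gene body, the 864 LINC genes had a median level of 0.0408 CPM per kb. The same median was 0.134 for 916 lncRNA genes named as antisense (-AS) to another gene, 0.209 for 430 named as divergent transcripts (-DT) and 0.558 for PCGs. LINC genes were also longer, with a median of 58.1 kb among those kept, against 20.9 kb for -AS genes and 39.7 kb for PCGs. The median LINC gene that was kept had 28.8 counts a library, against 353 for a PCG.

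LINC00662 (chr19:27681072-27794005, minus strand, 113 kb) had 23.9 CPM per kb. Its Y1P libraries held 2581 and 2508 CPM without IR and 2918 and 2769.6 CPM with IR. Its S2P libraries held 2713 and 2811, then 2709 and 2597 CPM, and its S5P libraries 2561 and 2711, then 2733 and 2662 CPM. All 12 libraries were within a narrow band, and the Y1P pair with IR was above the pair without, but the change missed the threshold (log2FC 0.16 ± 0.10 SE, n = 2 per group, edgeR adjusted p = 0.321). LINC00452 on chromosome 13 followed with 15.9 CPM per kb and LINC00958 on chromosome 11 with 5.49. The next 12, among them LINC00342, LINC00963, LINC01465, LINC01970 and LINC01126, ran from 4.17 down to 2.86 CPM per kb, and from LINC00958 down each gene's libraries overlapped those of the next. By total counts the order was another one, since long genes gather more: LINC00662 was followed by LINC02476 (412 kb, a mean of 20359 counts a library), LINC02109 (408 kb, 16901 counts) and LINC00511 (350.4 kb, 15601 counts).

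**Figure D1:**
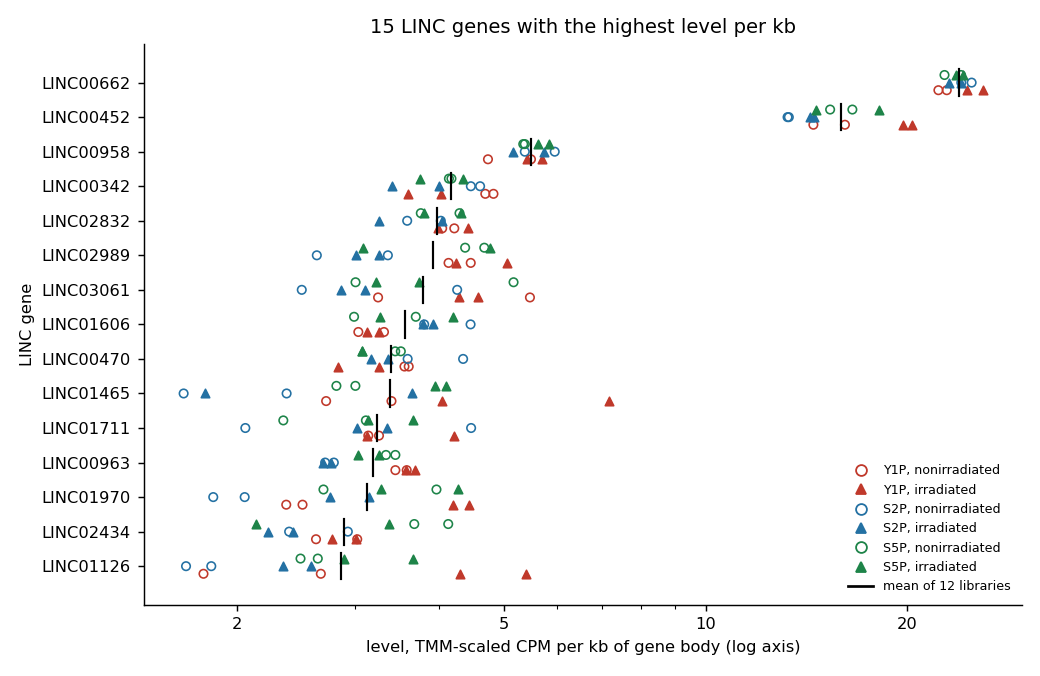
Level in CPM per kb of gene body (log axis) of the 15 LINC genes highest on that scale, 1 point per library, open for nonirradiated and filled for irradiated, coloured by antibody, with a bar at the mean of the 12 libraries. LINC00662 (23.9) and LINC00452 (15.9) stand apart from each other and from the other 13, each of which overlaps its neighbour in the order.

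With Y1P, more LINC genes rose than fell after irradiation. Of the 864, 37 (4.28%) rose and 6 (0.694%) fell at adjusted p under 0.05 and a log2FC beyond 0.1 (edgeR quasi-likelihood test, Benjamini-Hochberg adjustment). Over all 21246 genes, 4.38% rose and 4.28% fell, so the share of LINC genes that rose was near the background and the share that fell was below it. These shares also went with depth. Over 200 counts a library 3.62% of 138 LINC genes fell and 4.35% rose, against 9.29% and 2.95% of PCGs. At 50 to 200 counts 0.568% fell and 9.09% rose, against 0.426% and 7.71% of PCGs. Under 20 counts 0.0% fell and 1.19% rose, against 0.196% and 0.589% of PCGs. The part of depth in the split was not tested. Among PCGs, 3.57% rose and 5.75% fell. Of -AS genes 82 (8.95%) rose and 2 fell, and of -DT genes 45 (10.5%) rose. The median log2FC of the LINC genes was 0.13, against 0.02 for all genes and −0.04 for PCGs. Unadjusted p was under 0.05 for 130 LINC genes above 0 and 41 below.

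These counts rested on the scaling and on the second replicate. With relative log expression scaling the split was 14 lower and 40 higher, and with library totals or upper quartile scaling 0 lower and 43 higher, where the median of all genes itself stood at 0.21 and 0.08. DESeq2 on the same libraries called 9 lower and 2 higher, but its own filter on low means left only 100 of the 864 LINC genes, and 2 of the 37, with an adjusted p. Without that filter, a setting added after the data were seen, it called 2 lower and 8 higher, all among the 6 and the 37. Without replicate 2 no LINC gene was called in either direction (edgeR), and without replicate 1 16 were lower and 63 higher, while leaving out the replicate term gave 0 and 0. The median log2FC rested on the second replicate too. Without replicate 2 it was 0.015 for LINC genes and 0.016 for all genes, and without replicate 1 it was 0.36 and 0.06. Calls over all genes moved with these settings and replicates as well, so the moves were not particular to LINC genes. Of all 21246 genes, relative log expression scaling called 1320 lower and 946 higher, library totals 49 and 1188, and upper quartile scaling 385 and 1076. DESeq2 called 1124 and 131 of them, or 522 and 143 without its filter, and edgeR without the replicate term 2 and 0.

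The 37 that rose were mostly short and the 6 that fell mostly long. The median length was 15.5 kb (1.2 to 307 kb) for the first and 302 kb (21.0 to 1233 kb) for the second. Among LINC genes under 5 kb, 13 of 91 (14.3%) rose, against 11.1% of PCGs of that length. Among those of 5 to 20 kb 7 of 167 (4.19%) rose, against 7.05% of PCGs. Among those of 20 to 100 kb 12 of 284 (4.23%) rose and 2 (0.704%) fell, against 2.16% and 6.73% of PCGs. Above 100 kb 5 of 322 (1.55%) rose and 4 (1.24%) fell, while 10.1% of PCGs above 100 kb fell and 0.654% rose. Within a length class LINC genes and PCGs were not matched for counts, and the part of depth in these shares was not tested. The median log2FC of LINC genes went from 0.60 under 5 kb to 0.44, 0.17 and −0.08 in the longer classes, and that of PCGs from 0.36 to 0.16, −0.08 and −0.17. When the trend of log2FC with length over all genes was taken out before the test, 13 LINC genes rose and 2 fell, 12 and 1 of them among the 37 and the 6.

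**Figure D2:**
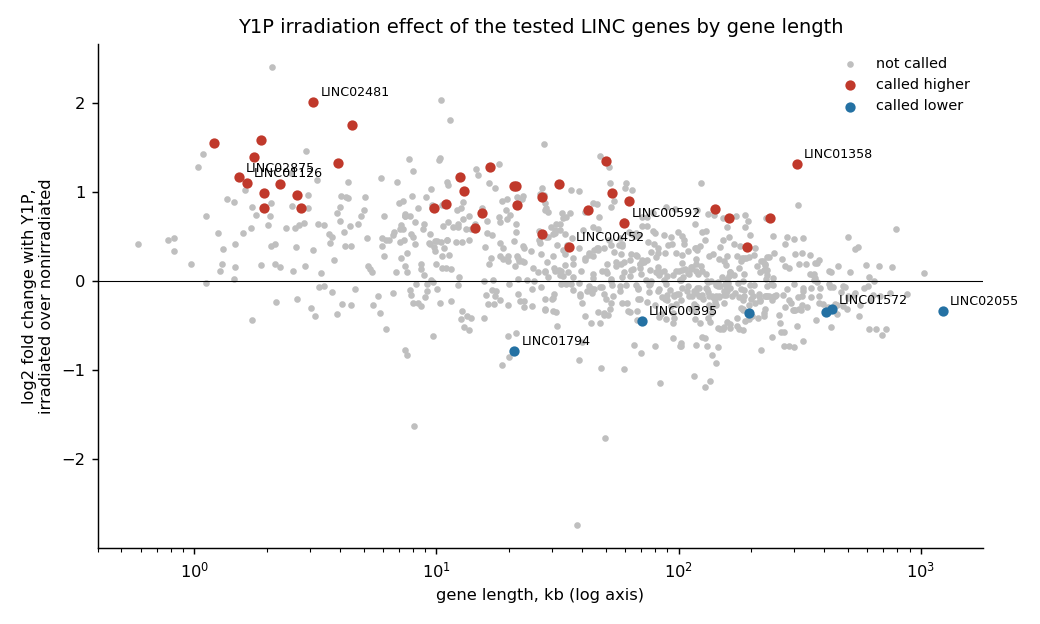
Log2FC after IR with Y1P (irradiated minus nonirradiated) against gene length in kb on a log axis, 1 point per LINC gene kept, with genes that rose and fell marked. The 37 that rose lie towards short genes (median 15.5 kb) and the 6 that fell towards long genes (median 302 kb).

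**Figure D3:**
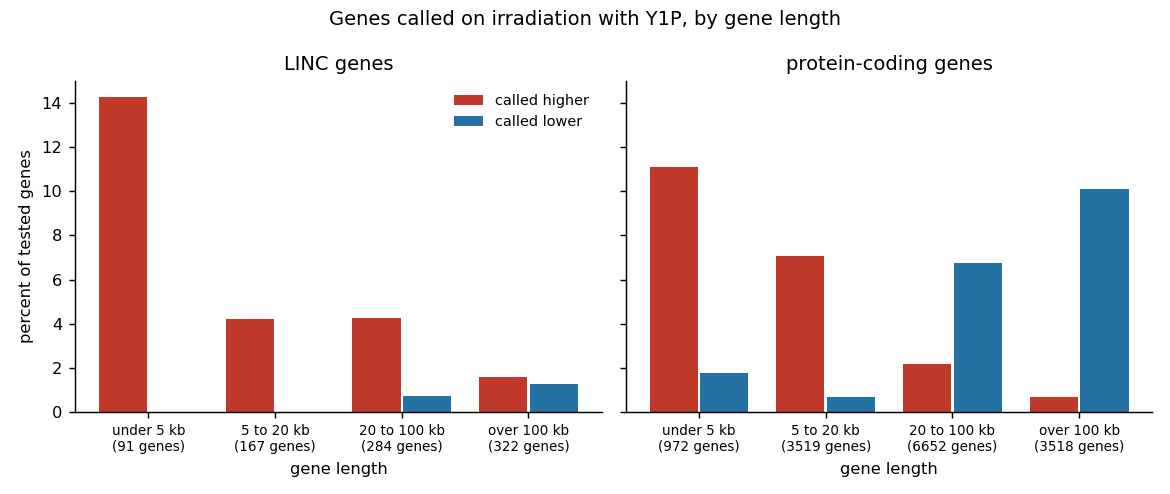
Share of genes called higher and lower after IR with Y1P, in percent, by class of gene length, for LINC genes and PCGs. In both classes the share that rose is highest under 5 kb (14.3% of LINC genes and 11.1% of PCGs). Above 100 kb the share that fell is 1.24% of LINC genes and 10.1% of PCGs, which were not matched for counts.

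LINC01970 (chr17:82290046-82292814, minus strand, 2.77 kb) and LINC01126 (chr2:43227210-43228855, plus strand, 1.65 kb) were among the clearest rises, and both windows above hold GGGCGG. LINC01970 had 6.44 and 6.09 CPM without IR and 10.8 and 11.4 CPM with IR (log2FC 0.82 ± 0.16 SE, n = 2, edgeR adjusted p = 0.0198). LINC01126 had 3.86 and 2.58 CPM, then 6.22 and 7.82 CPM (log2FC 1.11 ± 0.22, adjusted p = 0.0216). In both genes the irradiated libraries were above both nonirradiated ones. LINC01126 begins 0.604 kb from ZFP36L2, an RNA-binding protein gene on the other strand, whose own Y1P log2FC was 0.42 with an adjusted p of 0.059.

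LINC02875 (chr17:61411751-61413280, plus strand, 1.53 kb), 2.29 kb from the T-box factor gene TBX2, had 1.36 and 2.47 CPM without IR and 3.13 and 5.47 CPM with IR (log2FC 1.17 ± 0.24, n = 2, edgeR adjusted p = 0.022). Replicate 2 was the higher one in both groups, and the groups did not overlap. The largest log2FC among those named was that of LINC02481 on chromosome 4, 2.02 ± 0.45 (adjusted p = 0.025). It rested on 8 and 5 counts without IR and 24 and 33 with IR.

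Longer LINC genes rose too. LINC00592 (59.7 kb), which overlaps the keratin gene KRT80, went from 15.9 and 16.3 CPM to 22.3 and 29 CPM (log2FC 0.66 ± 0.13, n = 2, edgeR adjusted p = 0.0198). LINC01119 (42.3 kb) went from 8.81 and 7.41 CPM to 13.2 and 15.1 CPM (0.80 ± 0.15, adjusted p = 0.0202). LINC01271 (21.6 kb) went from 8.15 and 6.55 CPM to 12.3 and 14.5 CPM (0.86 ± 0.17, adjusted p = 0.0202). In these 3 the groups did not overlap. LINC01166, LINC01058 and LINC01465 completed the 10 of smallest p, with log2FC of 1.07, 1.33 and 0.83, and LINC00452, the second highest LINC gene per kb, rose less, from 565 and 507 CPM to 710.1 and 690.1 CPM (0.39 ± 0.09, adjusted p = 0.0281).

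The 6 that fell changed by less. LINC02109 (408 kb, chromosome 5) had 947 and 806 CPM without IR and 768 and 617 CPM with IR (log2FC −0.34 ± 0.10, n = 2, edgeR adjusted p = 0.0446). LINC01572 (429 kb, chromosome 16) had 174 and 171 CPM, then 147 and 131 CPM (−0.31 ± 0.08, adjusted p = 0.0415). LINC01411 (196 kb, chromosome 5) had 105 and 79.7 CPM, then 83.1 and 62.5 CPM (−0.35 ± 0.10, adjusted p = 0.0444). In LINC01411 the groups overlapped, and the call came from the fall within each replicate. LINC01794, the shortest of the 6 at 21.0 kb, fell most, from 4.78 and 5.92 CPM to 3.13 and 3.06 CPM (−0.78 ± 0.21, adjusted p = 0.0399). LINC00395 and LINC02055, the longest LINC gene called (1233 kb), had log2FC of −0.44 and −0.33 (adjusted p = 0.0475 and 0.0401).

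**Figure D4:**
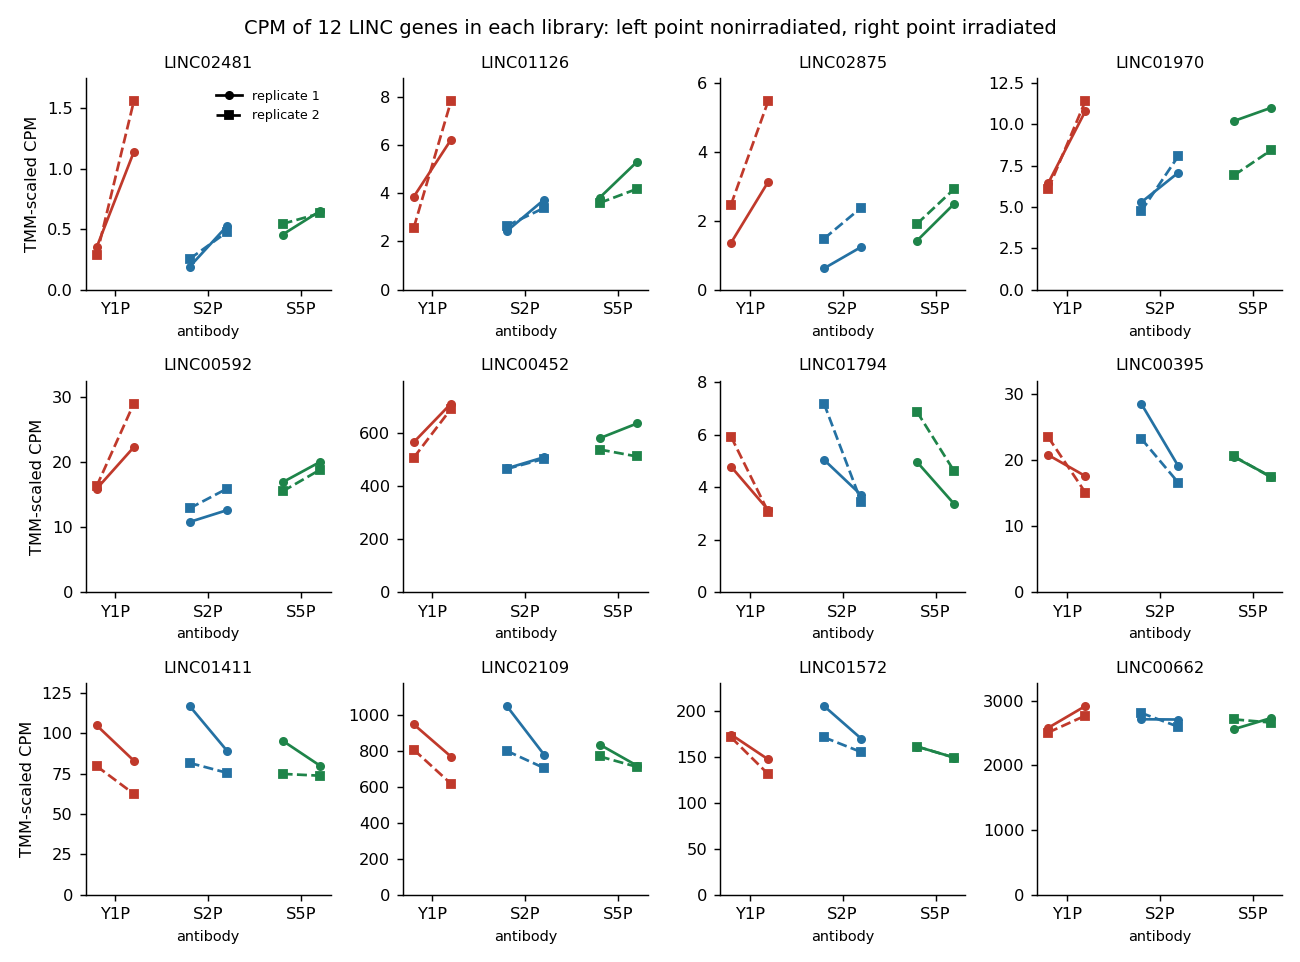
CPM in each of the 12 libraries for LINC genes named in the text, against the antibody. A line joins the nonirradiated (left) to the irradiated (right) library of a replicate, solid for replicate 1 and dashed for replicate 2. The Y1P libraries with IR lie above those without IR in LINC01970 and LINC01126 and below them in LINC01572, and the groups overlap in LINC01411.

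Genes next to the called LINC genes were read in the same fit. Of the 37 that rose, 27 had a nearest PCG that was tested, of which 4 rose, 1 fell and 22 passed neither way, where 3.57% of all PCGs tested rose and 5.75% fell. The 4, named after their values were seen, were UQCRFS1, 1220.3 kb from LINC02987, ENSG00000249209, which LINC00649 overlaps, PATZ1, 0.431 kb from LINC01521, and CEBPB, 107 kb from LINC01271. MON2, 1.27 kb from LINC01465, fell (log2FC −0.32, edgeR adjusted p = 0.0381) while LINC01465 rose from 4.73 and 5.92 CPM to 7.03 and 12.5 CPM. Of the 37, 5 overlapped a PCG, 3 began within 10 kb downstream of one and 29 did neither.

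With S2P and S5P no LINC gene passed the test after IR. With S2P the edgeR test called 0 of 864 in either direction, against 0.0847% lower and 0.0141% higher over all genes, and 52 LINC genes below 0 and 95 above had an unadjusted p under 0.05. DESeq2 called 0 on the same libraries with or without its own filter on low means, while on the single runs it called 10 lower and 3 higher. With S5P edgeR called 0 of 864, against 0.0424% lower and 0.00941% higher over all genes, with 41 and 22 at an unadjusted p under 0.05. DESeq2 called 0 on the same libraries, again with or without that filter. On the runs, with the same limit, it called 2 lower, against 106 lower and 166 higher of all genes. The lowest adjusted p of a LINC gene was 0.137 with S2P and 0.131 with S5P.

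The smallest p with S2P among falls belonged to LINC00395, which had 28.6 and 23.3 CPM without IR and 19.1 and 16.6 CPM with IR (log2FC −0.54 ± 0.12, n = 2, edgeR adjusted p = 0.137, not called). With S5P it belonged to LINC01776 on chromosome 1, which had 38.9 and 48.9 CPM, then 29.9 and 28.9 CPM (−0.57 ± 0.11, adjusted p = 0.131, not called). In both, the irradiated libraries were below the nonirradiated ones. Among rises with S2P, LINC02240 had 3.85 and 4.33 CPM, then 6.91 and 8.14 CPM (0.88 ± 0.22, adjusted p = 0.143, not called).

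The 43 LINC genes called with Y1P can be read in the S2P and S5P libraries, which are other libraries, though they may come from the same cells. With S2P 36 of the 37 that rose had a log2FC above 0 (median 0.50), against 514 of 821 LINC genes not called, and with S5P 32 of 37 (median 0.23), against 339 of 821. The 2 sets were not matched for length, with medians of 15.5 kb and 60.4 kb. The S5P median of LINC genes went from 0.23 under 5 kb to −0.18 above 100 kb, and the part of length in these signs was not tested. All 6 that fell were below 0 with both antibodies, with medians of −0.32 and −0.20. LINC01970 had 5.28 and 4.74 CPM with S2P without IR and 7.08 and 8.08 CPM with IR (0.58 ± 0.16, edgeR adjusted p = 0.151). The difference of the IR effect between antibodies was tested as an interaction. None of 864 LINC genes passed for any of the 3 antibody pairs (edgeR), with 24 below 0 and 27 above at an unadjusted p under 0.05 for S2P minus Y1P, 45 and 3 for S5P minus Y1P and 71 and 8 for S5P minus S2P. No interaction was run in DESeq2. Over all genes 0.0%, 0.0% and 0.00471% passed.

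The median log2FC of the LINC genes after IR was 0.18 with S2P and −0.06 with S5P, against 0.02 and 0.00 over all genes. With S2P it moved with depth, from 0.44 in LINC genes under 20 counts a library to −0.15 in those over 200, and the same medians of PCGs were 0.30 and −0.09. With a stricter filter on low counts the S2P median was 0.002 for LINC genes and 0.004 for all genes.

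Of 30 LINC genes listed because earlier work gives them a role or a locus, such as LINC00511, LINC00963 and LINC00941, 25 were in the table and 20 passed the filter. None was called after IR with any antibody by edgeR, with 5, 3 and 1 at an unadjusted p under 0.05 for Y1P, S2P and S5P. DESeq2 on the same libraries called 1 with Y1P, LINC00342, and 0 with S2P and S5P, and without its filter on low means it called 0 with each. LINC00342 had 134 and 130.3 CPM with Y1P without IR and 112 and 100.1 CPM with IR, 2 pairs that did not overlap (log2FC −0.32 ± 0.10, edgeR adjusted p = 0.0532). LINC00511 had 860.4 and 661 CPM, then 927 and 683 CPM (0.08 ± 0.09, adjusted p = 0.613), with overlapping groups. The median of the 20 with Y1P was 0.19.

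Comparing antibodies asks which form of RNA Pol II carried more of a gene's nascent RNA, relative to all genes. A call here also needed a log2FC beyond 1. Without IR 11 of 864 LINC genes (1.27%) had less S2P than Y1P signal, against 1.02% of all genes, and none had more, against 0.0659% (edgeR, 22 LINC genes above 0 at an unadjusted p under 0.05, and 0 higher by DESeq2). With IR 46 (5.32%) had less S2P than Y1P signal, against 3.51% of all genes, and 3 (0.347%) had more, against 0.372%. The share that was lower was larger in the other lncRNA classes. With IR it was 8.95% of -AS genes, 8.84% of -DT genes and 10.4% of other lncRNA genes, with median log2FC of −0.47, −0.53 and −0.41. Without IR the 3 shares were 3.06%, 2.09% and 2.7%. The median S2P minus Y1P log2FC of the LINC genes was −0.23 without and −0.21 with IR, against −0.04 and −0.05 over all genes. It was −0.12 without the first Y1P no IR library, and −0.09 with IR without the second Y1P IR library. The 2 comparisons use different libraries. Of the 864, 625 (72.3%) were below 0 without IR and 565 (65.4%) with IR.

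Both lists were made mostly of genes with few counts. Of the 46, 40 averaged under 50 counts a library, as did 8 of the 11. By length, 15 of 91 LINC genes under 5 kb (16.5%), 17 of 167 of 5 to 20 kb (10.2%) and 14 of 284 of 20 to 100 kb (4.93%) were called lower with IR, against 3.5%, 1.85% and 1.14% of PCGs of those lengths. Over 100 kb none of 322 was lower by edgeR or by DESeq2 (24 below 0 at an unadjusted edgeR p under 0.05), against 0.256% of PCGs, and LINC01099 and LINC01378, named after their values were seen, were higher. The count without IR fell to 0 without the first S2P no IR library. The count with IR was 14 without the second Y1P IR library and 63 without the first, and the 3 that were higher became 0 without the first S2P IR library and 7 without the second.

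LINC02777, LINC02579, LINC02983, LINC00649, LINC02748 and LINC03065 were lower in S2P than in Y1P in both comparisons, which is 54.5% of the 11 and 13.0% of the 46. LINC02983 (chr7:5426277-5428927, minus strand, 2.65 kb), whose window above holds CCAAT and GGGCGG, lies 0.863 kb from TNRC18, measured between the nearest edges of the genes. It had 5.08 and 3.22 CPM with Y1P and 1.62 and 2.04 CPM with S2P without IR (log2FC −1.21 ± 0.25, n = 2, edgeR adjusted p = 0.00634). With IR it had 7.41 and 8.95 CPM with Y1P and 3.15 and 3.45 CPM with S2P (−1.31 ± 0.20, adjusted p = 0.000147). The S2P libraries were below the Y1P libraries in both states, and LINC02983 was also among the 37 that rose with Y1P after IR (0.97 ± 0.22, adjusted p = 0.0253).

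LINC03065 (chr15:56887107-56888219, plus strand, 1.11 kb) had 2.45 and 2.99 CPM with Y1P and 0.666 and 1.27 CPM with S2P without IR (log2FC −1.51 ± 0.29, n = 2, edgeR adjusted p = 0.00406). With IR it had 3.47 and 5.80 CPM with Y1P and 1.71 and 2.20 CPM with S2P (−1.21 ± 0.23, adjusted p = 0.000773). LINC00649, a 62.2 kb gene on chromosome 21 that overlaps ATP5PO, an ATP synthase subunit gene on the other strand, had log2FC of −1.04 ± 0.26 without and −1.23 ± 0.22 with IR (adjusted p = 0.0174 and 0.00041). In LINC03065 too the antibodies did not overlap in either state. From the role list, LINC00324 was lower in S2P with IR (−1.32 ± 0.31, adjusted p = 0.00433), at 0.912 and 0.832 CPM against 1.95 and 2.45 CPM with Y1P.

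**Figure D5:**
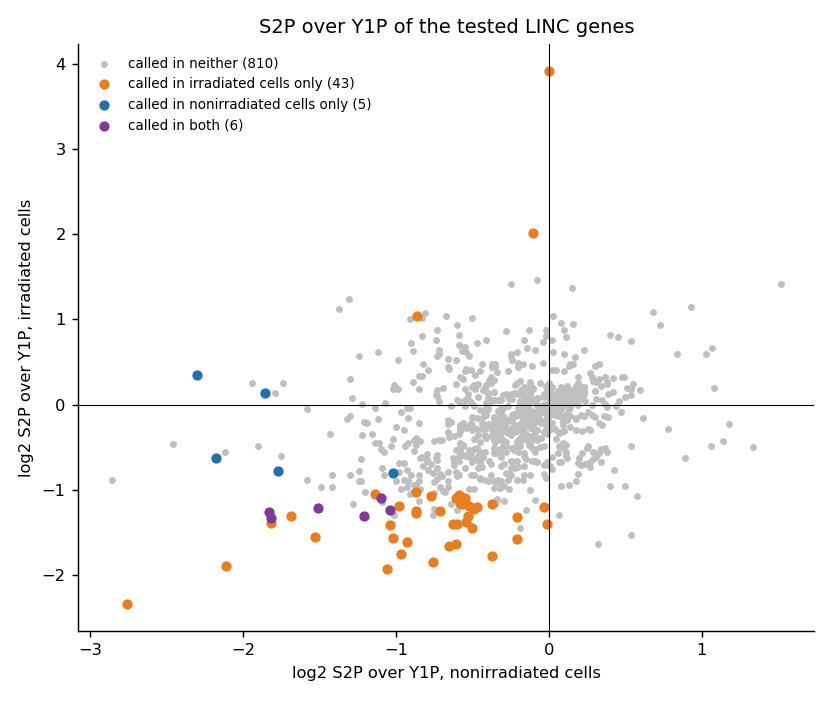
Log2FC of S2P minus Y1P in nonirradiated (x) and irradiated (y) cells, 1 point per LINC gene kept. Genes called in 1 or both comparisons, in either direction, are marked. The 6 genes called in both lie in the lower left corner, and 465 of 864 LINC genes are below 0 on both axes.

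Fewer LINC genes were called between S5P and Y1P. Without IR no LINC gene differed between S5P and Y1P (edgeR, 21 lower and 11 higher at an unadjusted p under 0.05, 0 by DESeq2), against 0.0% of all genes in each direction. With IR 2 LINC genes were lower in S5P, against 0.249% of all genes, and none was higher, against 0.0141% (4 above 0 at an unadjusted p under 0.05, and 0 by DESeq2). The 2 were LINC02983, with 3.46 and 4.02 CPM in S5P (log2FC −1.12 ± 0.20, edgeR adjusted p = 0.00917), and LINC02870, with 0.216 and 0.276 CPM in S5P against 0.95 and 1.18 CPM in Y1P (−2.07 ± 0.52, adjusted p = 0.0369). DESeq2 gave neither an adjusted p on its default setting, called LINC02983 alone without its filter on low means, and neither passed with library totals as the scaling.

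Between S5P and S2P no LINC gene was called. Without IR edgeR had 21 lower and 128 higher at an unadjusted p under 0.05, with a median of 0.26, and over all genes 0.0% was called in each direction. With IR it had 31 lower and 50 higher, and over all genes 0.0565% was lower and 0.0282% higher. DESeq2 called 0 in each of these.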

How the data were processed

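The data were the deposited gene body counts of 24 mNET-seq runs of U2OS cells. The members, gene lists and tests were chosen with earlier results of these data known. Before deposit the authors trimmed reads with cutadapt (1.8.3 per the labels), used STAR on hg38, and dropped reads that mapped more than once, came from internal priming or were PCR duplicates. They made the deposited counts with featureCounts from 200 bp after the start to the end of each gene, on the annotated strand only and without reads over more than 1 gene body. The annotation release used for counting is not given in the sources used here. Names, lengths and positions came from GENCODE 44, which lacked 120 gene IDs with 0.0116% of counts.

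The 2 runs of each group and replicate agreed within sampling noise (chi-square over its degrees of freedom 1.058 to 1.096, against 8.951 to 61.234 between replicates) and were summed to 12 libraries. Same-numbered libraries deviated together from their group means (r = 0.341 to 0.682 over 15 pairs), so the replicate number entered as a block. edgeR 4.0.16 (R 4.3.3) was run with TMM scaling, filterByExpr and the quasi-likelihood test on all 12 libraries, with Benjamini-Hochberg adjustment over the 21246 genes kept. For IR the block was set within each antibody (3 residual degrees of freedom), and for antibodies 1 block was shared (5 residual degrees of freedom). The SE of a log2FC is its size over the root of the F statistic. CPM was scaled by TMM and divided by gene body length for comparisons between genes.

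The text names the 15 LINC genes highest per kb with at least 50 counts on average, up to 10 called genes of smallest p per antibody and direction (or 3 not called), up to 8 of largest log2FC per antibody contrast without IR, and the role list. Genes outside this rule were chosen after their values were seen. Alternatives were DESeq2 1.42.0, other scalings and filters, each sequencing batch, no block, a length trend removed and each replicate left out. The fitting script was checked on simulated counts.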

Additional observations from a re-analysis of the deposited data

How the results depend on the processing

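The calls depended on the block, the replicates, the filter and the scaling. The log2FC of the 43 LINC genes called after IR with Y1P, and of the 49, 11 and 2 called between antibodies, kept their sign under every setting that gave them a value. These genes were chosen by calls on the same libraries, and all of the 37 and the 6 moved 1 way in both replicate pairs. A kept sign was therefore close to fixed in advance and adds no support to the calls. After IR with Y1P (6 lower and 37 higher), the counts were 0 and 0 with no replicate block, 18 and 69 with 1 replicate block for the antibodies together, 17 and 72 with no filter, and 0 and 24 with a stricter filter. Over all genes these settings gave 2 and 0, 1741 and 1638, 1205 and 1589, and 337 and 796. The LINC counts were 14 and 40 with relative log expression scaling, and 0 and 43 with library totals or upper quartile scaling. They were 2 and 33 with each antibody fitted alone, and 2 and 13 with the length trend removed. Over all genes the last 2 settings gave 245 and 760, and 416 and 224. DESeq2 gave 9 and 2 on the same libraries, and 2 and 8 without its filter on low means (added after the data were seen). On the runs it gave 13 and 39, against 1381 and 987 over all genes. The fits on the runs take the 2 runs of 1 library as separate replicates, so they understate the spread. Batch 1 alone gave 0 and 16 and batch 2 alone 0 and 18, against 563 and 446, and 378 and 503, over all genes. Leaving out a replicate gave 0 (without replicate 2) to 16 lower and 0 to 63 higher (without replicate 1), where the lone libraries were assumed to vary like the other groups.

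After IR with S2P (0 and 0), the counts were 1 and 4 with the shared replicate block, 3 and 8 with the antibody fitted alone, 10 and 3 with DESeq2 on the runs and 8 and 17 with no filter. Over all genes these settings gave 154 and 93, 176 and 192, 556 and 205, and 303 and 344. With S5P (0 and 0) they were 1 lower with the shared replicate block, 16 and 3 with the antibody alone, 2 lower with DESeq2 on the runs, 3 lower with no filter, and 0 to 2 lower without a replicate. Over all genes S5P gave 31 and 32 with the shared block, 453 and 593 with the antibody alone, 106 and 166 with DESeq2 on the runs, and 108 and 158 with no filter. With no filter, 1 of 2087 LINC genes passed the S5P minus S2P interaction, against 68 lower and 28 higher of 40079 genes.

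For S2P minus Y1P with IR (46 and 3), DESeq2 gave 16 and 0, or 17 and 1 without its filter, no replicate block 19 lower, a stricter filter 10 and 0, the length trend removed 27 lower, batch 2 alone 1 higher, and leaving out a library 14 to 63 lower and 0 to 7 higher. Without IR (11 and 0), DESeq2 gave 2 lower, or 3 without its filter, library totals 5, no filter 22 and 2, no replicate block 0, batches 1 and 2 alone 4 and 5, a stricter filter 4, and leaving out a library 0 to 10 lower and 0 to 1 higher. For S5P minus Y1P with IR (2 lower), DESeq2 gave 0, or 1 without its filter, library totals 0, no filter 9, no replicate block 0, a stricter filter 1, the length trend removed 1, and leaving out a library 0 to 8. Without IR (0 and 0) no filter gave 1 and 1, and leaving out a library 0 to 1 lower. For S5P minus S2P, no filter gave 3 and 1 with IR and 10 higher without, and leaving out a library 0 to 1 lower with IR. Over all genes, S2P minus Y1P with IR gave 285 and 35 by DESeq2, 322 and 35 with no replicate block, 766 and 87 with no filter, and 223 and 20 with a stricter filter. Without IR it gave 43 and 0 by DESeq2, 0 and 0 with no replicate block, 315 and 27 with no filter, and 80 and 1 with a stricter filter. Under the same 4 settings S5P minus Y1P with IR gave 0 and 1, 0 and 0, 120 and 10, and 23 and 1. The cause of the moves in all these counts was not tested, except that DESeq2's filter left LINC genes with no adjusted p. Most LINC genes kept had under 50 counts a library, which limits what a call or its absence can show.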
